A study of Caenorhabditis elegans with 21 samples.

Results

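The genes described here encode ubiquitin, the ubiquitin-like protein NEDD8, and the enzymes and subunits that attach these proteins to others. They were chosen by symbol: every gene named ubc, uev, uba, ubq, skr, cul, rbx or ned followed by a number, where it was listed in both count tables of the series. This rule used no measured value, but it was set with earlier results of these data known. It found 57 genes of 16715 gene names listed in both tables. They were ned-8 with the ubiquitin genes ubq-1 and ubq-2 (3 genes), 3 activating enzymes (E1), 19 conjugating enzymes (E2) of ubiquitin, 2 E2 enzymes of SUMO and NEDD8, 3 E2 variants (uev), 6 cullins, 2 RING subunits (rbx) and 19 Skp1-related genes (skr). The ubiquitin E2 gene let-70 and the NEDD8 E1 genes ula-1 and rfl-1 carry other names and are not among the 57.

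The series is bulk RNA-seq of the C. elegans wild-type strain N2, with 21 libraries in 7 groups of 3. Adult libraries held 100 day-1 adults each: always-fed controls carrying more than 5 eggs, fertile F4 L1starved adults carrying more than 5 eggs, and sterile F4 L1starved adults with no eggs. The F4 L1starved animals came from a lineage kept without food as first-stage larvae (L1) for 6 days in each of 5 generations, their own the last, and fertile and sterile adults were picked from the same starved populations by what they carried. L1 libraries held about 10000 larvae each, from the control line or from the F4+3 line, whose starved F4 ancestors were followed by 2 generations with food. Each line was hatched with food and taken 14 hours after egg preparation, or hatched without food and taken at 18 hours, so that food and hours since egg preparation cannot be told apart. All groups share the N2 background and no transgene or deletion was used. Every value is from whole animals, where fewer cells of a type and less RNA per cell cannot be told apart.

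Ubiquitin is passed from an E1 to an E2 and then, with the help of a ligase (E3), to a substrate, often to mark it for the proteasome. Cullin-RING ligases are E3 enzymes built on a cullin scaffold, which binds a RING protein near its C-terminal end and a substrate adaptor near its N-terminal end. In the SCF ligase the scaffold is CUL-1 and the adaptor is a Skp1-related protein that holds an F-box protein, and cullins become active when NEDD8 is attached to them through their own E1 and E2. In C. elegans these ligases are known for their work in meiosis, the oocyte-to-embryo transition, cell cycle exit and, for CUL-6, the response to intracellular pathogens.

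Between 25209530 and 53482585 reads per L1 library and between 12187063 and 22942483 per adult library were assigned to genes. Values are the deposited normalized read counts, and tests are limma fits on log2(count + 1) over all genes of a table with a mean of at least 10, with Benjamini-Hochberg adjustment over all of them. A gene is called higher or lower at an adjusted p under 0.1 in L1 larvae and under 0.05 in adults, the levels the study used. Fold changes are on this log2(count + 1) scale with the standard error of the fit, and understate the change of low genes. In L1 larvae 49 of the 57 members passed this filter, and skr-8, skr-9, skr-10, skr-12, skr-13, skr-14, skr-15 and ubc-24 did not. In adults 53 passed, and skr-5, ubc-21, ubc-22 and uev-2 did not. The 2 tables were normalized separately, so no fold was taken between larvae and adults.

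Levels between genes were compared per kilobase of coding length within a table. In control L1 larvae with food the highest was ubq-2, which encodes ubiquitin fused to a ribosomal protein, at 93135 normalized reads per kilobase. It was followed by skr-1 at 16281, ned-8 at 14265 and ubc-20 at 14171. In control adults ubq-2 stood at 13312 and the polyubiquitin gene ubq-1 at 9048, ahead of ubc-18 at 6321. The pair skr-1 and skr-2, which lie next to each other and encode the best-studied Skp1-related subunits of C. elegans, was split differently in the 2 tables. Within each control larva library with food skr-1 was 16.5 to 22.7 times as high as skr-2 per kilobase, and within each control adult library 1.05 to 1.14 times. The larval ratio lay at 25.2 to 32.4 in control larvae without food, and the adult ratio at 1.39 to 1.66 in fertile and 2.91 to 3.66 in sterile adults. How reads that match several genes were treated is not given in the sources used here, so the split between close copies is uncertain: between ubq-1 and ubq-2, which share the ubiquitin unit, between skr-1 and skr-2, and among the Skp1-related genes that are neighbours on the WBcel235 annotation (skr-13, skr-9, skr-8 and skr-12 in a row, skr-14 with skr-7, and skr-20, skr-19 and skr-21 in a row). Whether counting used strand is not given either, and skr-5, ubc-12 and ubc-19 share 59, 49 and 69 exon bases with a gene on the opposite strand.

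The first comparison asked whether larvae descended from starved ancestors differ from control larvae in these genes. No member was called higher or lower in F4+3 larvae, with food or without. With food 0.0126% of 15902 genes were called lower and 0% higher, and without food 0% in either direction. The median member log2 fold change was 0.01 with food and 0.05 without, beside 0.01 and 0.01 over all genes tested. At an unadjusted p under 0.05 there were 4 members with food and 0 without, and edgeR and DESeq2 on recovered whole reads also called 0 members. For ned-8, both ubiquitin genes, uba-1, ubc-9, ubc-12, skr-1, skr-2, the cullins and the RING subunits, the libraries of the 2 lines overlapped with food and without. In simulated L1 counts the limma fit called 16 of 67 genes changed 1.5 times, so small differences between the lines can be missed.

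ubc-3, the C. elegans CDC34-type E2, had the smallest p in both food conditions and passed the threshold in neither. Its counts were 3604, 3330 and 3020 in control and 2694, 2754 and 2336 in F4+3 larvae with food, and 3794, 3713 and 3718 and 3149, 3531 and 2974 without food. The F4+3 libraries lay below the control libraries each time, with log2 differences of -0.35 ± 0.10 and -0.22 ± 0.10 and adjusted p of 0.283 and 0.941. It was the 1 member whose lines were apart in the same direction in both food conditions. In all, 3 members had lines that did not overlap with food and 4 without, against 12.8% and 10.6% of all genes. ubc-8, an E2 related to human UBE2H, stood at 962, 1062 and 686 in control and 644, 698 and 472 in F4+3 larvae with food. These ranges overlapped, and the difference was -0.57 ± 0.18 with an adjusted p of 0.315. Without control library 3, the lowest of the control libraries for this gene, its adjusted p was 0.0896. Without food uba-2, a subunit of the SUMO E1, stood at 384, 458 and 381 in control and 554, 473 and 459 in F4+3 larvae, with a difference of 0.28 ± 0.14 and an adjusted p of 0.941. The F4+3 effect did not differ between food conditions for any member by its own test, with 0 called, as for 0% of all genes, and 0 at an unadjusted p under 0.05 with limma, edgeR or DESeq2. The smallest p there belonged to ubc-8, with a difference of -0.37 ± 0.25, and skr-7, with 1.77 ± 1.24, at adjusted p of 1.00 and 1.00.

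The second comparison set larvae without food against larvae with food within each line. In control larvae 11 members were higher and 21 lower without food, of 49 tested, where 27.6% of all genes were higher and 30.5% lower. In F4+3 larvae 10 were higher and 24 lower, where 27.1% and 30.4% of all genes were. The members called were thus 22.4% higher and 42.9% lower in control larvae and 20.4% and 49% in F4+3 larvae. The median member log2 fold change was -0.20 and -0.15, beside 0.04 and 0.02 over all genes. Of these, 9 members were higher in both lines, which is 81.8% and 90% of each line's list, and 20 were lower in both, which is 95.2% and 83.3%. The overlap of the lines over all genes was not counted, so these shares show nothing particular to the members. Without food the summed hypodermis and seam markers were also lower, at 82829 to 103029 in control larvae against 212442 to 216573 with food, and 8 of their 10 tested genes fell while 0 rose. In F4+3 larvae these sums were 103588 to 136442 against 205804 to 257861, with 9 of 10 genes lower and 1 higher. Sums of other tissues were apart too. Germline proliferation and meiosis markers were at 8077 to 8193 without food against 13722 to 15204 with food in control larvae and at 7370 to 9693 against 15698 to 16414 in F4+3 larvae, with 5 and 7 of 14 genes lower and 2 and 2 higher. Intestine sums were lower without food in both lines (384312 to 412188 against 521266 to 673577 in control larvae), with 6 higher and 6 lower of 13 genes in control and 5 and 5 in F4+3 larvae. Neuron sums were higher in both lines (118904 to 126822 against 91297 to 103645 in control larvae), with 7 and 6 of 13 genes higher and 1 and 0 lower. Of 12 muscle markers 3 and 5 were higher and 1 and 2 lower. The part of these tissues in the results below was not tested.

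**Figure D1:**
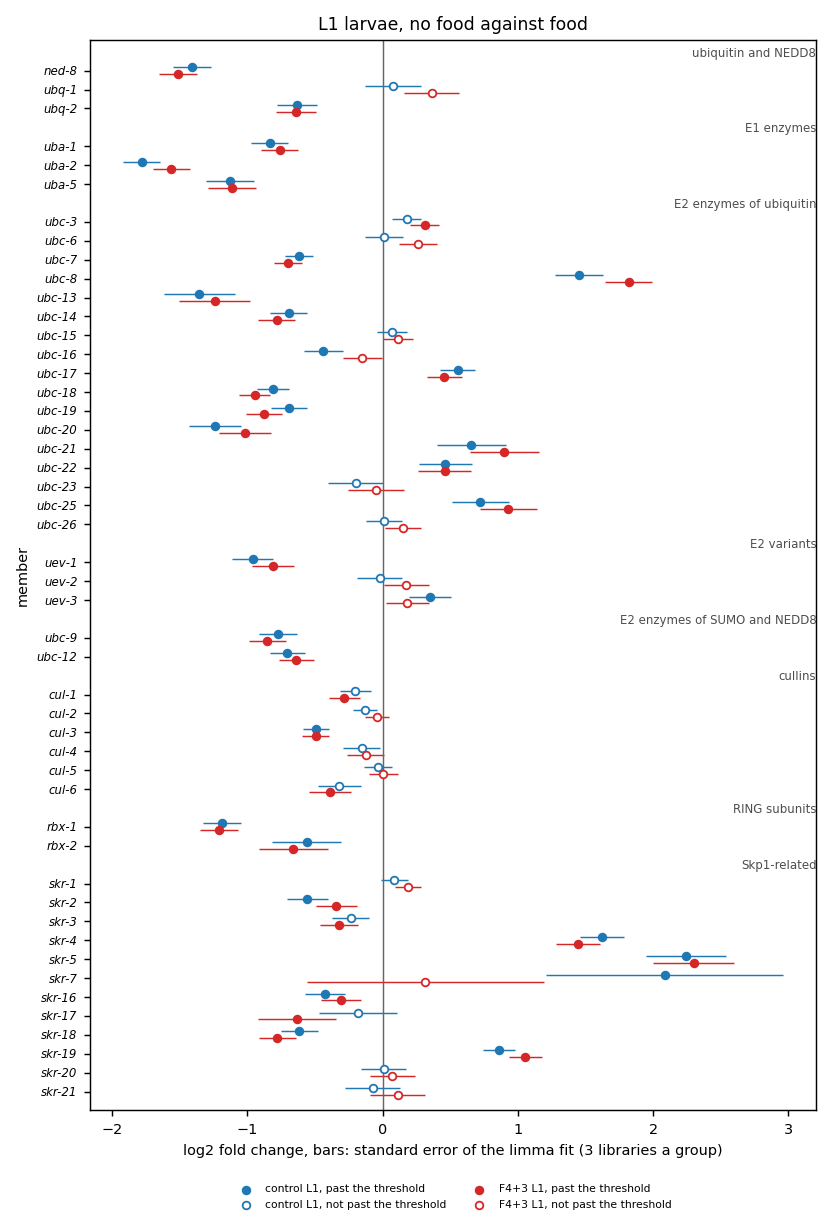
Log2 fold change of 48 members tested in L1 larvae without food against larvae with food, with the standard error of the limma fit, in the control line (blue) and the F4+3 line (red). Filled points passed the adjusted p threshold. The E1 genes, ned-8, rbx-1, ubc-9 and ubc-12 lie to the left in both lines, skr-4, skr-5, ubc-8 and skr-19 to the right, and cul-2, cul-4 and cul-5 near 0.

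Among the modifiers themselves, ned-8 fell and ubq-1 did not pass the test. ned-8 was at 2611, 3640 and 3635 in control larvae with food and at 1275, 1341 and 1070 without, and at 3543, 3838 and 4186 and 1480, 1383 and 1200 in F4+3 larvae. All 6 libraries without food lay below all 6 with food. The log2 fold change was -1.41 ± 0.14 (adjusted p = 9.48e-07) in control and -1.51 ± 0.14 (adjusted p = 4.65e-07) in F4+3 larvae. ubq-2 stood at 43017, 32317 and 31957 with food and 25922, 22774 and 20222 without in the control line, and at 31990, 33219 and 36192 and 18041, 22845 and 24680 in the F4+3 line. Every library without food lay below every library with food, with changes of -0.63 ± 0.15 and -0.64 ± 0.15 (adjusted p = 0.00238 and 0.00216). ubq-1, which encodes a chain of ubiquitin units, held 27507, 19428 and 16035 with food and 25542, 17534 and 22454 without in control larvae, and 16545, 14197 and 12619 and 14907, 17792 and 23751 in F4+3 larvae. Its groups overlapped, with log2 differences of 0.08 ± 0.20 and 0.36 ± 0.20 and adjusted p of 0.776 and 0.155, and the F4+3 difference passed the threshold without F4+3 library 1 without food and in a fit of the F4+3 libraries alone.

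All 3 activating enzymes fell in both lines. uba-1, the ubiquitin E1, was read at 15233, 12710 and 11037 with food and 8172, 6617 and 6976 without in control larvae, and at 13437, 11181 and 11904 and 6351, 7034 and 8193 in F4+3 larvae. No library without food reached a library with food, and the changes were -0.83 ± 0.14 and -0.76 ± 0.14 (adjusted p = 1.21e-04 and 2.61e-04). uba-2 had the smallest adjusted p among the members that fell. Its counts were 1616, 1168 and 1449 with food and 384, 458 and 381 without in control larvae, and 1357, 1444 and 1597 and 554, 473 and 459 in F4+3 larvae. The log2 fold changes were -1.78 ± 0.14 and -1.57 ± 0.14, with no overlap (adjusted p = 7.69e-08 and 2.67e-07). uba-5, the E1 of the ubiquitin-like protein UFM1, changed by -1.13 ± 0.18 and -1.12 ± 0.18 (adjusted p = 8.05e-05 and 8.64e-05).

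The E2 enzymes that carry SUMO and NEDD8 fell with them. ubc-9, the SUMO E2, was at 3622, 4036 and 4567 with food and 2310, 2603 and 2218 without in control larvae, and at 5007, 4654 and 4227 and 3101, 2577 and 2094 in F4+3 larvae. The fed and unfed libraries were apart in both lines, with changes of -0.77 ± 0.14 and -0.85 ± 0.14 (adjusted p = 2.53e-04 and 1.05e-04). ubc-12, the NEDD8 E2, was at 1217, 984 and 978 with food and 660, 652 and 627 without in control larvae, and at 1041, 1223 and 1140 and 836, 621 and 739 in F4+3 larvae. These also did not overlap, and the changes were -0.71 ± 0.13 and -0.64 ± 0.13 (adjusted p = 3.25e-04 and 7.30e-04).

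E2 enzymes of ubiquitin were called in both directions, in shares not far from those of all genes. Of 18 tested, 6 were higher and 7 lower without food in control larvae, where 27.6% and 30.5% of all genes were, and 7 higher and 6 lower in F4+3 larvae, where 27.1% and 30.4% were. ubc-18, which works with the ligase ARI-1 in development of the pharynx, stood at 2506, 1851 and 2499 with food and 1267, 1318 and 1284 without in control larvae, and at 2446, 2542 and 2702 and 1381, 1317 and 1288 in F4+3 larvae. All libraries without food were below those with food, with changes of -0.81 ± 0.12 and -0.95 ± 0.12 (adjusted p = 3.38e-05 and 7.25e-06). ubc-13 and its partner uev-1, which together build lysine-63-type chains, fell in both lines, with changes of -1.36 ± 0.26 and -1.24 ± 0.26 for ubc-13 and -0.96 ± 0.15 and -0.81 ± 0.15 for uev-1. ubc-7, ubc-14, ubc-19 and ubc-20 were also lower in both lines, with log2 fold changes from -1.24 (ubc-20) to -0.62 (ubc-7) in control larvae. In the other direction, ubc-8 was at 962, 1062 and 686 with food and 2741, 2241 and 2337 without in control larvae, and at 644, 698 and 472 and 1782, 2240 and 2338 in F4+3 larvae. Every library without food lay above every library with food, with changes of 1.45 ± 0.18 and 1.82 ± 0.18 (adjusted p = 7.07e-06 and 7.06e-07). ubc-17, ubc-21, ubc-22 and ubc-25 were also higher without food in both lines, by 0.46 (ubc-22) to 0.72 (ubc-25) in control larvae, but the control-line call of ubc-21 was lost without library 2 of either food group, and that of ubc-22 with DESeq2, with only the groups compared and without control library 1 or 2 with food or 1 without. The F4+3 call of ubc-22 was lost with no filter and without F4+3 library 1 or 2 of either food group.

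Of the 6 cullin scaffolds, cul-3 passed the test in both lines. cul-1, the SCF scaffold, was at 1880, 1537 and 1559 with food and 1498, 1340 and 1475 without in control larvae and at 1560, 1590 and 1785 and 1219, 1403 and 1437 in F4+3 larvae. Its change was -0.20 ± 0.11 in control larvae, which did not pass (adjusted p = 0.149), and -0.28 ± 0.11 in F4+3 larvae (adjusted p = 0.0481), where the call was lost without F4+3 library 3 with food or library 1 without food. cul-3, the scaffold for BTB-domain adaptors such as MEL-26, fell in both lines. It stood at 3285, 2896 and 2892 with food and 2251, 2035 and 2158 without in control larvae, and at 2988, 2914 and 3240 and 2000, 2237 and 2245 in F4+3 larvae, with no overlap and changes of -0.49 ± 0.10 and -0.50 ± 0.10 (adjusted p = 6.52e-04 and 6.01e-04). cul-2, the elongin-linked scaffold, ranged from 3253 to 3766 over all 12 L1 libraries, and its differences of -0.13 ± 0.09 and -0.04 ± 0.09 did not pass. cul-4, the DDB-1-linked scaffold, ranged from 986 to 1546 with differences of -0.16 ± 0.14 and -0.13 ± 0.14, also not past the threshold except in control larvae without control library 3 with food. cul-5, which pairs with RBX-2, ranged from 1375 to 1729, and its differences were -0.04 ± 0.10 and 0.00 ± 0.10. cul-6 stood at 281, 244 and 277 with food and 223, 205 and 213 without in control larvae, and at 294, 225 and 269 and 216, 165 and 222 in F4+3 larvae. The difference was -0.32 ± 0.16 in control larvae (adjusted p = 0.101, just outside the threshold, which it passed with a minimum mean of 50, with the replicate block and without control library 2 with food) and -0.39 ± 0.16 in F4+3 larvae (adjusted p = 0.04999), and the F4+3 call was lost without any of 3 F4+3 libraries (1 or 3 with food, 2 without).

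The RING subunits fell. rbx-1, the RING protein shared by most cullins, was at 2015, 1978 and 2470 with food and 846, 1066 and 915 without in control larvae, and at 2154, 2618 and 2854 and 1228, 1101 and 953 in F4+3 larvae. All 6 libraries without food lay below the other 6, with changes of -1.19 ± 0.14 and -1.21 ± 0.14 (adjusted p = 4.87e-06 and 3.85e-06). rbx-2 was at 238, 389 and 403 and 178, 290 and 223 in control larvae, which overlapped, and at 391, 420 and 457 and 327, 327 and 177 in F4+3 larvae. Its changes were -0.56 ± 0.25 and -0.66 ± 0.25 (adjusted p = 0.0766 and 0.0409). The control-line call was lost in turn without libraries 2 and 3 with food and 1 and 3 without, and the F4+3 call without library 3 of either food group.

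**Figure D2:**
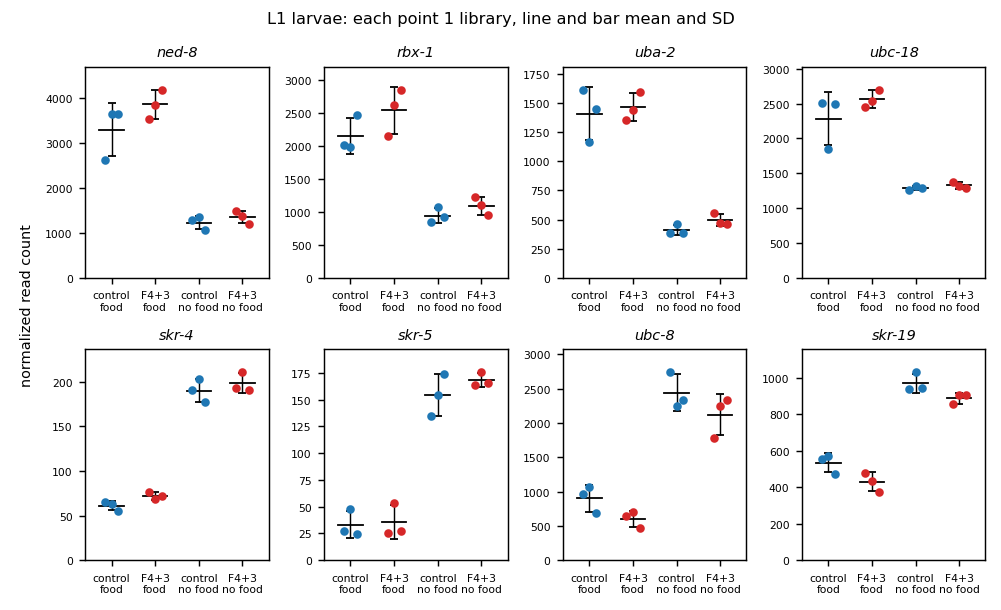
Normalized read counts of 8 members in the 12 L1 libraries, by line and food, on axes from 0; each point is 1 library, and the line and bar are the mean and SD of 3. ned-8, rbx-1, uba-2 and ubc-18 are lower in all 6 libraries without food, and skr-4, skr-5, ubc-8 and skr-19 are higher in all 6.

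The Skp1-related genes went both ways. skr-1 was the highest of them per kilobase, and its counts were 8331, 8096 and 9363 with food and 9082, 8990 and 9273 without in control larvae and 7784, 8460 and 8825 and 10210, 9450 and 8899 in F4+3 larvae. Its differences of 0.09 ± 0.10 and 0.19 ± 0.10 did not pass (adjusted p = 0.477 and 0.124), although the F4+3 difference passed with TMM scaling, with edgeR and without F4+3 library 3 without food. skr-2 was at 500, 466 and 408 with food and 298, 352 and 283 without in control larvae, where it fell with no overlap (-0.56 ± 0.15, adjusted p = 0.00622). In F4+3 larvae it was at 366, 418 and 440 and 298, 388 and 284, which overlapped, and its change of -0.34 ± 0.15 (adjusted p = 0.0700) was lost with edgeR, with DESeq2 and without any of 4 libraries (2 or 3 with food, 1 or 3 without).

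skr-3, skr-4 and skr-5 encode the Skp1-related proteins that act with CUL-6 in the response of C. elegans to intracellular pathogens. skr-4 rose from 65.6, 62.5 and 55.4 to 191, 203 and 177 in control larvae and from 76.6, 68 and 71.5 to 193, 211 and 190 in F4+3 larvae, by 1.62 ± 0.16 and 1.45 ± 0.16 (adjusted p = 9.63e-07 and 2.85e-06). skr-5 went from 27.2, 47.8 and 24.3 to 135, 154 and 174 and from 25.2, 53.7 and 27.4 to 164, 176 and 165, by 2.24 ± 0.30 and 2.30 ± 0.30 (adjusted p = 1.55e-05 and 1.19e-05). Both genes were higher in every library without food than in any with food. skr-3 did not rise: it was at 1380, 971 and 1298 with food and 1006, 1038 and 1015 without in control larvae and at 1371, 1183 and 1543 and 1046, 1008 and 1209 in F4+3 larvae, with overlapping groups in each line. Its differences were -0.24 ± 0.14 (adjusted p = 0.167) and -0.32 ± 0.14 (adjusted p = 0.0645), and the F4+3 call was lost without any of 4 libraries (1 or 3 with food, 1 or 2 without). skr-19 rose from 557, 574 and 475 to 938, 1033 and 944 in control larvae and from 478, 437 and 375 to 855, 906 and 908 in F4+3 larvae, by 0.86 ± 0.12 and 1.05 ± 0.12 (adjusted p = 2.71e-05 and 3.56e-06), with no overlap. skr-18 was lower without food in both lines (-0.62 ± 0.14 and -0.78 ± 0.14). skr-7 was called higher in control larvae, at counts of 7.43, 0 and 8.75 with food and 10.5, 24.1 and 20.7 without, and this call was lost with edgeR and without control library 2 with food or libraries 2 or 3 without.

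Genes that work with these members were taken from lists of the wider pathway, also chosen with earlier results of these data known. Their counts stand beside 27.6% of all genes higher and 30.5% lower without food in control larvae, and 27.1% and 30.4% in F4+3 larvae. Without food, CDC-48 and ubiquitin shuttling genes were lower in 16 of 18 in control larvae and 14 of 18 in F4+3 larvae, with 0 higher, and a median log2 fold change of -0.70 and -0.74. cdc-48.2, a copy of the ATPase that extracts ubiquitinated proteins, changed by -1.44 ± 0.14 and -1.49 ± 0.14. Deubiquitinases were lower in 14 of 22 and 12 of 22, and higher in 2 and 3, led by ubh-4 at -1.81 ± 0.13 and -1.78 ± 0.13 and usp-14 at -1.23 ± 0.10 and -1.20 ± 0.10, both of which act at the proteasome. SUMO and UFM1 conjugation genes were lower in 8 of 11 in each line and higher in 1 and 0, and the smallest p belonged to the modifiers smo-1 (SUMO, -2.41 ± 0.12 and -2.20 ± 0.12) and ufm-1 (-2.06 ± 0.15 and -2.15 ± 0.15). Of 11 NEDD8 cycle and COP9 signalosome genes, the latter of which remove NEDD8 from cullins, 5 and 6 were lower and 1 and 1 higher, with csn-4 at -0.98 ± 0.10 and -1.12 ± 0.10. Of 25 cullin substrate adaptors and receptors 8 were higher and 7 lower in control larvae and 8 and 8 in F4+3 larvae, close to the shares of all genes. Among them elb-1 (elongin B) changed by -1.11 ± 0.10 and -1.01 ± 0.10. Anaphase-promoting complex genes were lower in 8 of 14 and 9 of 14, with 0 higher, and RING, HECT and RBR ligases were higher in 7 and 5 of 29 and lower in 13 and 11.

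The adult comparisons asked how fertile and sterile adults of the last starved generation differ from always-fed adults. Marker genes of several tissues differed between the adult groups in the same libraries. Over all genes 41.8% were lower and 41.3% higher in sterile than in control adults. In fertile adults 12% of all genes were lower and 9.86% higher than in control adults. All 16 oocyte and early embryo markers were lower in sterile than in control adults, with summed levels of 24960 to 57990 against 273749 to 318998, and all 14 markers of germline proliferation and meiosis were lower, at 16348 to 27670 against 80287 to 96113. Sperm markers were higher in 13 of 13, at 8428 to 9977 against 99.3 to 255. The filter took the mean over all adult libraries, so some sperm markers may have passed it only through the sterile libraries. Of 12 muscle markers 11 were higher and 0 lower, and of 14 intestine markers 10 and 0. Of 13 neuron markers 11 were higher and 2 lower, and of 11 hypodermis and seam markers tested 3 and 2. The hypodermis and seam sums were 23545 to 33852 in sterile against 17154 to 20103 in control adults. In fertile adults the oocyte and embryo sums were 175763 to 219587 and the germline sums 54582 to 66136, also below every control library, with 2 of 16 and 4 of 14 genes called lower. Sperm sums were 259 to 890 in fertile adults, above every control library, with 5 of 13 genes higher and 0 lower. Of muscle markers 2 were higher and 0 lower, of intestine 0 and 1, of neuron 3 and 1, and of hypodermis and seam markers 3 and 1. Of the sperm markers 1 was at 0 in each of the 3 control libraries and in fertile libraries 2 and 3, and none in sterile libraries. Of the hypodermis and seam markers 2 were at 0 in sterile library 2. In sterile library 3, control library 2 and fertile libraries 2 and 3, 1 of them was at 0. The part of these tissues in the members' values was not tested, and fertile-control and sterile-control comparisons share their 3 control libraries.

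In fertile adults 17 of 53 members were lower than in controls and 0 higher, which is 32.1% of members, where 12% of all genes were lower and 9.86% higher. The median member log2 fold change was -0.33, beside -0.11 over all genes. The libraries did not overlap for 34 members that were lower and 2 that were higher, or 64.2% and 3.77% of members, against 32.6% and 18.5% of all genes. The number called moved with the fit, for members and for all genes. With the sterile libraries left out 29 members (1 higher, 28 lower) were called, and of 12268 genes 1617 were higher and 3452 lower. Without control library 1 the members called were 9, and 609 of 13486 genes were higher and 366 lower. Without control library 2 they were 10, and 707 of 13476 genes were higher and 537 lower. TMM scaling raised the all-gene median from -0.11 to 0.04 and turned the all-gene split from 1323 higher and 1613 lower to 1833 and 792, and left 13 members lower and 0 higher. The 9 members lower in every alternative were ned-8, rbx-1, skr-2, ubc-6, ubc-7, ubc-13, ubc-18, ubc-20 and ubq-2.

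ned-8 had the smallest adjusted p of these, with 1192, 1055 and 996 in control and 582, 402 and 379 in fertile adults. All fertile libraries were below all control libraries, with a log2 fold change of -1.27 ± 0.16 (adjusted p = 0.00134). ubq-2 was at 5696, 5173 and 4467 in control and 3454, 3472 and 3273 in fertile adults, a change of -0.58 ± 0.12 (adjusted p = 0.00864) with no overlap. ubq-1 was at 24287, 21916 and 22037 and 19072, 27138 and 26699, which overlapped, and did not pass (0.08 ± 0.15, adjusted p = 0.705). Among the E2 enzymes ubc-18 was at 3143, 2809 and 2753 in control and 1664, 1669 and 1714 in fertile adults (-0.78 ± 0.11, adjusted p = 0.00172). ubc-7, related to the E2 enzymes of endoplasmic reticulum quality control, was at 3170, 2787 and 2653 and 1750, 1751 and 1773 (-0.70 ± 0.10, adjusted p = 0.00193). ubc-20 was at 2270, 2049 and 1788 and 1227, 1004 and 1024 (-0.91 ± 0.14, adjusted p = 0.00249). For these 3 genes the highest fertile library was below the lowest control library. rbx-1 was at 1146, 977 and 922 in control and 597.6, 554 and 527 in fertile adults (-0.85 ± 0.15, adjusted p = 0.00433), and skr-2 at 1991, 1668 and 1672 and 1042, 1070 and 1010 (-0.77 ± 0.13, adjusted p = 0.00397). skr-1, its neighbour, was at 2292, 1851 and 1778 and 1753, 1514 and 1420 and did not pass (-0.33 ± 0.12, adjusted p = 0.0724), except with only the groups compared.

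Most cullins did not pass the test in fertile adults. Their log2 differences ran from -0.44 (cul-5) to -0.15 (cul-6), and only cul-5 passed the threshold, in a call that was lost with TMM scaling, with edgeR and without any 1 of the 6 libraries compared. In the other direction, cul-2 and cul-3 were called lower with DESeq2 and with only the groups compared, and cul-4 with only the groups compared. For cul-1 to cul-5 the 3 fertile libraries all lay below the 3 control libraries. uba-1 passed at -0.42 ± 0.13 (adjusted p = 0.0407), with counts of 18406, 16535 and 15198 in control and 11059, 13651 and 12698 in fertile adults, and ubc-26 at -0.44 ± 0.14 (adjusted p = 0.0444), but both were lost without any 1 of the 6 libraries, with TMM scaling, with edgeR and with no filter. The calls of ubc-16, uev-1, rbx-2 and skr-17 were also lost without control library 1, all of these but skr-17 without control library 2, and that of rbx-2 without fertile library 3. rbx-2 was at 287, 236 and 227 in control and 141, 171 and 121.5 in fertile adults (-0.79 ± 0.19, adjusted p = 0.0166). ubc-9 and ubc-12, the SUMO and NEDD8 E2 genes, were at 1418, 1684 and 1784 and 541, 627 and 671 in fertile adults and did not pass, with differences of -0.46 ± 0.17 and -0.29 ± 0.18, although ubc-9 passed with DESeq2 and with only the groups compared.

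**Figure D3:**
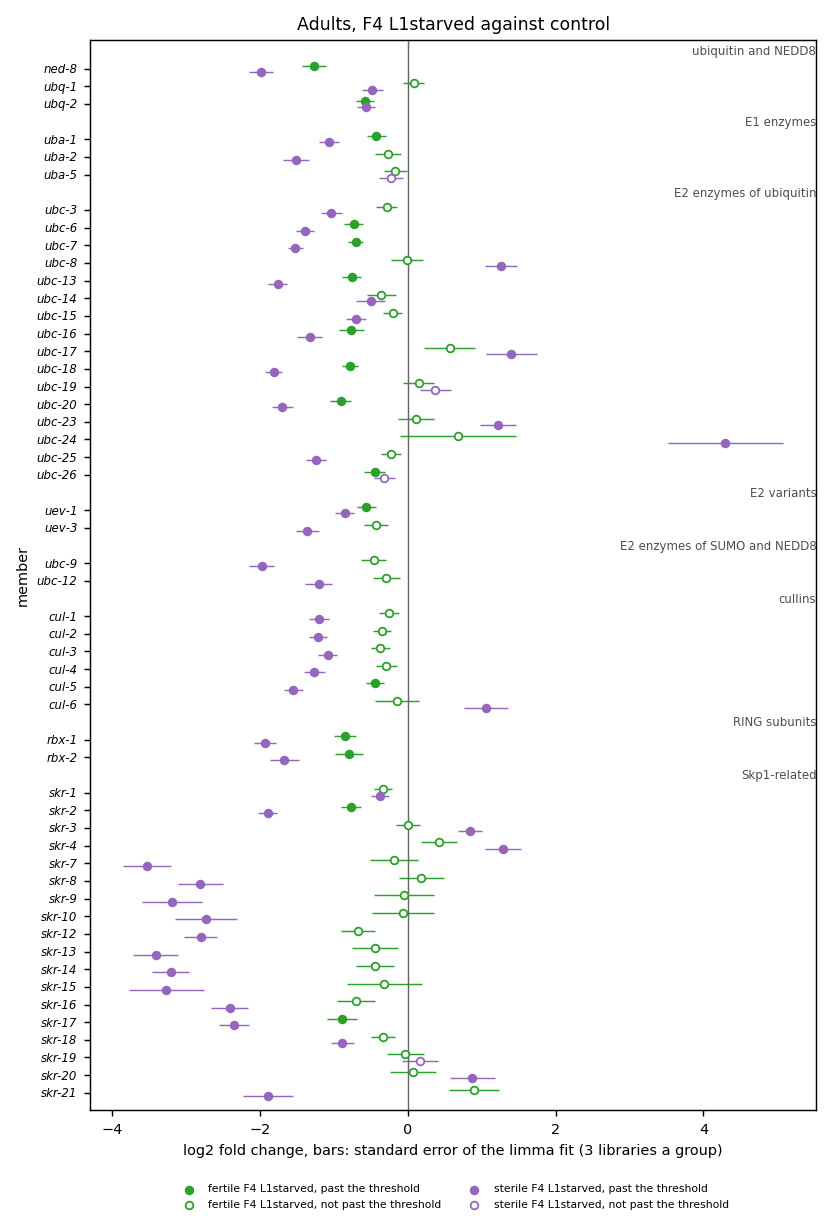
Log2 fold change of 52 members tested in adults, fertile (green) and sterile (purple) F4 L1starved against control, with the standard error of the limma fit. Filled points passed the adjusted p threshold; the comparisons share their control libraries. Most filled points of sterile adults lie to the left; cul-6, skr-3, skr-4, skr-20, ubc-8, ubc-17, ubc-23 and ubc-24 are the 8 higher in sterile adults.

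In sterile adults 41 of 53 members were lower than in controls and 8 higher, or 77.4% and 15.1% of members, where 41.8% of all genes were lower and 41.3% higher. The median member log2 fold change was -1.24, beside 0.14 over all genes. With TMM scaling, which moved the all-gene median to 0.35, 38 members were lower and 9 higher with a median of -1.03. ubc-24 passed the filter on low counts only through its sterile libraries. Without the filter all 57 members were tested, and 41 were lower and 9 higher. Against fertile adults 36 members were lower and 8 higher in sterile adults, where 39.6% of all genes were lower and 38.8% higher, with medians of -0.79 for members and 0.10 for all genes.

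In sterile adults cul-1 to cul-5 were lower and cul-6 was higher. cul-1 was at 3358, 2750 and 2798 in control, 2102, 2623 and 2737 in fertile and 1132, 1370 and 1388 in sterile adults, and cul-2 at 5380, 4969 and 4709, 3518, 4097 and 4251 and 1869, 2292 and 2385. cul-3 was at 4674, 4209 and 4013, 3053, 3445 and 3479 and 1719, 2354 and 2060. For each of these the groups followed in the order control, fertile, sterile with no overlap of sterile with either other group, and the sterile-control changes were -1.19 ± 0.14, -1.21 ± 0.12 and -1.08 ± 0.13. cul-4 was at 2028, 1951 and 1960 in control, 1397, 1760 and 1731 in fertile and 668, 954 and 874 in sterile adults, and cul-5 at 1889, 1760 and 1818, 1199, 1438 and 1395 and 530, 679 and 673. These changed by -1.27 ± 0.14 and -1.55 ± 0.13 against control (adjusted p = 5.90e-06 and 6.21e-07), and by -0.98 ± 0.14 and -1.102 ± 0.13 against fertile adults. Sterile library 1, which held the lowest oocyte and germline marker sums, was the lowest of the 3 for all 5. It was also the lowest for rbx-1 and ned-8, but the highest for rbx-2, at 90.3 against 76.2 and 68. This was seen after the values were known, and a link to the markers was not tested. cul-6 went the other way, at 58.1, 55.3 and 51.9 in control, 59.6, 68.4 and 29.8 in fertile and 102, 138 and 109 in sterile adults. Its sterile libraries were above all others, by 1.05 ± 0.30 against control (adjusted p = 0.00568) and 1.20 ± 0.30 against fertile adults (adjusted p = 0.00286).

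**Figure D4:**
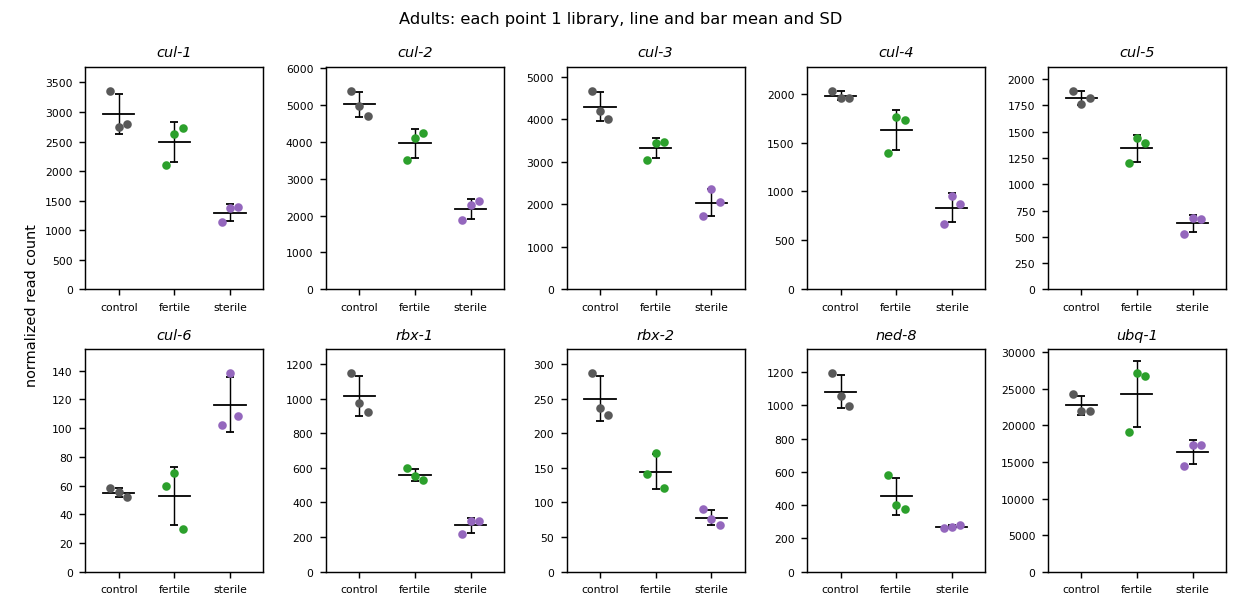
Normalized read counts of the 6 cullins, the RING subunits rbx-1 and rbx-2, ned-8 and ubq-1 in the 9 adult libraries, on axes from 0; each point is 1 library, and the line and bar are the mean and SD of 3. cul-1 to cul-5, both RING subunits and ned-8 are lowest in the 3 sterile libraries and below control in every fertile library. cul-6 is highest in the sterile libraries.

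The RING subunits and ned-8, the proteins that make a cullin active, were lower as well. rbx-1 was at 217, 292 and 294 in sterile adults, -1.93 ± 0.15 against control (adjusted p = 4.69e-07) and -1.07 ± 0.15 against fertile adults (adjusted p = 5.15e-05). rbx-2 was at 90.3, 76.2 and 68, -1.67 ± 0.19 against control (adjusted p = 7.10e-06). ned-8 was at 263, 271 and 281, with changes of -1.98 ± 0.16 (adjusted p = 6.27e-07) and -0.71 ± 0.16 (adjusted p = 0.00170). All 3 sterile libraries were below all fertile and control libraries for each of these genes. ubq-2 behaved otherwise: it was at 2979, 3716 and 3648 in sterile adults, -0.57 ± 0.12 against control (adjusted p = 9.09e-04) and 0.01 ± 0.12 against fertile adults, which did not pass. ubq-1 was at 14455, 17335 and 17318, with changes of -0.48 ± 0.15 (adjusted p = 0.00890) and -0.56 ± 0.15 (adjusted p = 0.00404), and its call against control was lost with TMM scaling and with edgeR.

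Most conjugating enzymes followed. uba-1 was at 7075, 9360 and 7668 in sterile adults (-1.06 ± 0.13, adjusted p = 1.22e-05), and uba-2 was called lower at -1.51 ± 0.17, while uba-5 did not pass (-0.23 ± 0.16, adjusted p = 0.199). ubc-9 was at 2481, 2090 and 2134 in control and 432, 690 and 610 in sterile adults (-1.97 ± 0.17, adjusted p = 7.70e-07). ubc-12 was at 880, 695 and 680 and 247, 389 and 352 (-1.21 ± 0.18, adjusted p = 5.53e-05). For both genes every sterile library was below every control library. Of 17 ubiquitin E2 genes tested, 11 were lower and 4 higher, where 41.8% of all genes were lower and 41.3% higher. ubc-18 was at 729, 890 and 858 in sterile adults (-1.81 ± 0.11, adjusted p = 2.01e-07), the smallest adjusted p of any member in this comparison, and ubc-7 at 980, 1051 and 962 (-1.52 ± 0.10, adjusted p = 2.81e-07). ubc-13 was at 1193, 1098 and 974 in control, 611, 684 and 634 in fertile and 287, 348 and 329 in sterile adults (-1.76 ± 0.13, adjusted p = 3.52e-07), in 3 separate ranges. Its partner uev-1 changed by -0.85 ± 0.13, and uev-3, known from a neuronal kinase pathway, by -1.36 ± 0.16, both past the threshold.

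Of the ubiquitin E2 genes, ubc-8, ubc-17, ubc-23 and ubc-24 were higher in sterile adults. ubc-8 was at 104, 82.6 and 115 in control, 89.8, 81.6 and 132 in fertile and 223, 257 and 238 in sterile adults, with sterile libraries above all others, and changed by 1.26 ± 0.21 (adjusted p = 1.60e-04) and 1.27 ± 0.21 against fertile adults (adjusted p = 2.05e-04). ubc-24 was at 1.87, 0 and 2.16 in control, 5.88, 4.39 and 0 in fertile and 51.8, 33.3 and 37.1 in sterile adults (4.30 ± 0.78, adjusted p = 2.77e-04), and its control libraries held 2, 0 and 3 reads. Since ubc-24 passed the filter only through its sterile libraries, this test gives no support of its own. In larvae the same gene was at 0 in 9 of 12 libraries. ubc-17 was at 15, 16.7 and 25.2 in control and 47.8, 57.1 and 46.8 in sterile adults (1.40 ± 0.35, adjusted p = 0.00254) and ubc-23 at 31.8, 36.4 and 30.3 and 67.7, 93.6 and 73.3 (1.22 ± 0.24, adjusted p = 5.05e-04), with no overlap in either.

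Of the members, Skp1-related genes held the largest falls from control to sterile adults on the log2 scale. Of 18 tested in sterile adults, 14 were lower and 3 higher than in controls, where 41.8% of all genes were lower and 41.3% higher. skr-7 was at 623, 468 and 522 in control, 441, 466 and 502 in fertile and 22.6, 60.3 and 68.9 in sterile adults, and skr-13 at 132, 123 and 125, 93.2, 101 and 84.8 and 6.64, 11.1 and 17.7. skr-14 was at 265, 217 and 257, 190, 155 and 199 and 17.3, 27 and 36.2. These changed by -3.52 ± 0.33, -3.41 ± 0.31 and -3.21 ± 0.25 against control and by -3.33 ± 0.33, -2.97 ± 0.31 and -2.76 ± 0.25 against fertile adults. skr-8 was at 91.8, 101 and 101 in control, 88.1, 110 and 142.1 in fertile and 7.97, 15.9 and 17.7 in sterile adults (-2.99 ± 0.31 against fertile, adjusted p = 8.93e-06). skr-9, skr-10, skr-12 and skr-15 likewise fell against control, with log2 fold changes from -3.26 (skr-15) to -2.73 (skr-10). None of these 8 genes, skr-7 to skr-10 and skr-12 to skr-15, passed the test in fertile adults. They include the 7 Skp1-related genes that did not reach a mean of 10 in larvae, where no library held more than 48 reads of any of those 7.

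skr-2 was at 398, 514 and 526 in sterile adults, below the fertile and control ranges (-1.89 ± 0.13, adjusted p = 3.10e-07, against control, and -1.13 ± 0.13, adjusted p = 1.69e-05, against fertile adults). skr-1 was at 1476, 1519 and 1549, -0.37 ± 0.12 against control (adjusted p = 0.0147, lost with TMM scaling, with edgeR and without control library 1) and -0.04 ± 0.12 against fertile adults, which did not pass. skr-21 stood apart from the other members. It was at 102, 99.3 and 117 in control, 202, 173 and 222 in fertile and 33.2, 14.3 and 45 in sterile adults, so that its 3 groups did not overlap and fertile adults were the highest. The fertile-control difference of 0.90 ± 0.34 did not pass (adjusted p = 0.0750), while sterile adults were lower than control (-1.89 ± 0.34, adjusted p = 2.39e-04) and lower than fertile adults (-2.79 ± 0.34, adjusted p = 2.07e-05).

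skr-3 and skr-4 rose in sterile adults together with cul-6, the scaffold they are known to work with. skr-3 was at 126, 149 and 164 in control, 137, 155 and 147 in fertile and 280, 232 and 275 in sterile adults, with sterile libraries above the rest (0.84 ± 0.16, adjusted p = 4.54e-04, and 0.83 ± 0.16, adjusted p = 5.97e-04). skr-4 was at 107, 117 and 92.2, 128, 174 and 125 and 307, 316 and 177, with sterile library 3 close above the highest fertile library (1.29 ± 0.24, adjusted p = 3.15e-04, and 0.87 ± 0.24, adjusted p = 0.00566). skr-5 did not reach the filter in adults, with counts of 0.936, 2.27 and 0 in control, 9.23, 0 and 11.5 in fertile and 17.3, 7.94 and 7.95 in sterile adults. skr-20 was called higher as well (0.87 ± 0.31, adjusted p = 0.0189), which was lost without control library 2, control library 3 or sterile library 2.

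**Figure D5:**
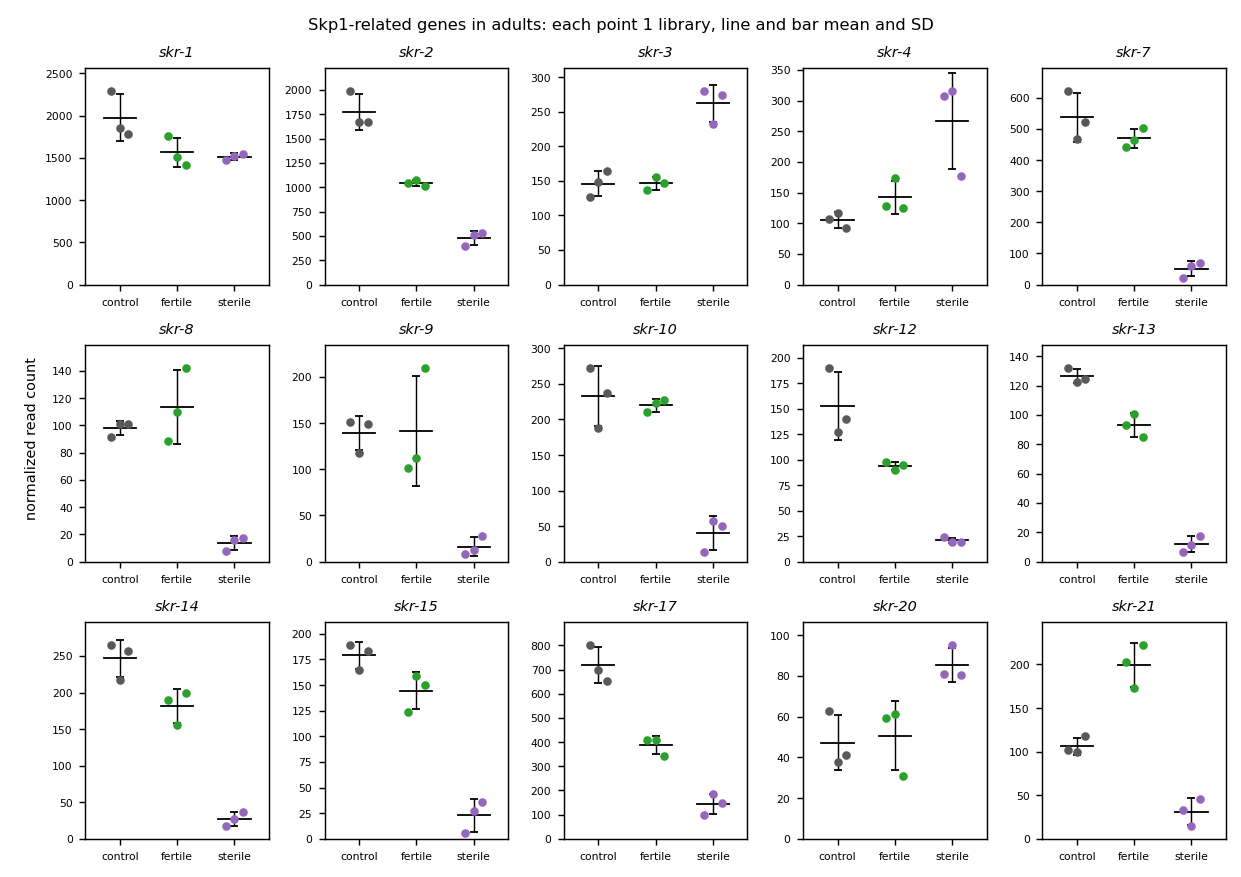
Normalized read counts of 15 Skp1-related genes in the 9 adult libraries, on axes from 0; each point is 1 library, and the line and bar are the mean and SD of 3. skr-7 to skr-10 and skr-12 to skr-15 are at low counts in sterile adults, skr-2 and skr-17 step down in both, skr-3 and skr-4 are higher in sterile adults, and skr-21 is highest in fertile adults.

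Most genes of the wider pathway lists were lower in sterile adults, where 41.8% of all genes were lower and 41.3% higher. All 14 anaphase-promoting complex genes, 18 CDC-48 and shuttling genes, 11 NEDD8 cycle and COP9 signalosome genes and 11 SUMO and UFM1 genes tested were lower than in controls, and so were 21 of 22 deubiquitinases, with 0 higher in these lists. Their medians ran from -1.27 (NEDD8 cycle and COP9 signalosome) to -1.83 (anaphase-promoting complex). The smallest p of their lists belonged to fzy-1, the CDC20-type activator of the anaphase-promoting complex, at -2.28 ± 0.14, csn-2 at -1.40 ± 0.11 and ulp-4 at -1.75 ± 0.12. Second by p in the latter 2 lists were csn-5, the NEDD8-removing subunit of the signalosome, at -1.54 ± 0.13, and smo-1 at -2.73 ± 0.19. Cullin substrate adaptors and receptors were lower in 17 of 23 and higher in 2. Their lead genes were zif-1, a CUL-2 adaptor of the early embryo, at -2.84 ± 0.17, and mel-26, a CUL-3 adaptor that targets katanin after meiosis, at -1.98 ± 0.15. Of 28 RING, HECT and RBR ligases 22 were lower and 5 higher, with rfp-1, a RING ligase, at -1.98 ± 0.13 and hecw-1, a HECT ligase of neurons, at 3.38 ± 0.25. In fertile adults, where 12% of all genes were lower and 9.86% higher, the same lists held 0 to 2 genes called higher and 2 to 11 called lower each, the most in CDC-48 and shuttling genes (11 of 18), with ubl-5, a ubiquitin-like protein of the mitochondrial stress response, at -2.06 ± 0.36, smo-1 at -1.32 ± 0.19 and emb-1, an anaphase-promoting complex subunit, at -1.52 ± 0.28.

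Larvae without food and sterile adults come from separate experiments with no shared libraries, and their calls can be set side by side for the 45 members tested in both. In control larvae 21 of these were lower without food, and 34 were lower in sterile adults, with 19 in both, or 90.5% of the larval and 55.9% of the adult list. Of these 45 members 75.6% were lower in sterile adults. Over the 11633 genes tested in both, 4408 were lower in control larvae without food and 5085, or 43.7%, in sterile adults, with 2784 in both, or 63.2% of the larval and 54.7% of the adult list. In the higher direction 8 of these members were called in control larvae and 7 in sterile adults. The 3 in both were skr-4, ubc-8 and ubc-17, or 37.5% of the larval and 42.9% of the adult list. Over all genes tested in both, 2945 and 4394 were higher, with 1838 in both, or 62.4% and 41.8%. cul-6 and skr-3 were higher in sterile adults and called lower in F4+3 larvae without food, and skr-7, ubc-25 and uev-3 were called higher in control larvae without food and lower in sterile adults. The larval call of uev-3 was lost with DESeq2, with only the groups compared and without control library 1 with food or 1 or 3 without. No test of these overlaps was made.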

How the data were processed

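Total RNA of 21 libraries was sequenced by the authors with a kit that depletes ribosomal RNA by custom primers, aligned to WS220 with Subread, assigned to genes with featureCounts and normalized with DESeq2. Versions, strand use and the treatment of reads matching several genes are not given in the sources used here. The deposited values are a signal, each library's counts divided by its size factor, in 1 table for adults and 1 for L1 larvae. The 7 adult columns labelled score, for negative fill in 3 damaged rows, hold deposited counts normalized by the authors with DESeq2 like the others. The label changed no value, and all adult columns were treated alike. The 3 damaged adult rows and 1 damaged row of the L1 table were left out, which kept 17720 adult and 23184 L1 genes. The deposited log2 fold change and p-value columns hold the authors' own comparisons and were not used.

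Dividing each library by its smallest step gave whole reads for 100% of values within 0.1 read, and these gave the depths. Values were tested with limma 3.58.1 in R 4.3.3 (moderated test with trend) on log2(count + 1), with a mean of at least 10, all groups of a table in 1 fit and no block. edgeR 4.0.16 and DESeq2 1.42.0 on the recovered reads were alternatives, with TMM scaling, pseudocounts of 0.5 and 5, no filter, a minimum mean of 50, a replicate block, only the groups compared, and each library left out in turn. The limma fits were tested on simulated counts with the same spread set for all genes. In the L1 design 16 of 67 genes changed 1.5 times and 55 of 67 changed 2 times were called. Of genes changed 4 times 64 of 66 were called, and 22 calls were false. In the adult design these were 13 of 67, 43 of 67 and 66 of 66, with 4 false calls. No replicate pair agreed within counting noise. The study describes the libraries of a group as independent biological replicates.

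Coding lengths came from the WBcel235 annotation, another build than that of the files, so no coordinates are given. The members and gene lists were chosen with earlier results of these data known. Every member could be named except 1, which is counted in the totals but not reported here or plotted. Values in every library are given for the ubiquitin, NEDD8, E1, SUMO and NEDD8 E2, skr-1, skr-2, cullin and RING genes, with these exceptions. For cul-2, cul-4 and cul-5 in larvae only the range is given, and for uba-5, and uba-2 in adults, only fold changes. Library values are also given in each comparison for up to 4 members per direction with the smallest adjusted p and a mean of at least 50. Where no member passed, the 2 with the smallest p are named, and from each pathway list up to 2 genes per comparison. Some further members were named after their values were seen. Sterile and fertile libraries of the same number deviated together (correlations 0.175, 0.183 and 0.384 across genes) and were picked from the same populations, so these numbers pair the samples.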

Additional observations from a re-analysis of the deposited data

How the results depend on the processing

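In L1 larvae, no alternative moved the count of members called without food by over 1.5 times: leaving out 1 library gave 27 to 32 in control and 26 to 32 in F4+3 larvae, against 32 and 34. For F4+3 against control larvae the count stayed at 0 except with food without control library 3, where it was 1 (ubc-8, range 0 to 1); without food and for the difference it was 0 to 0. In adults the count for sterile against control was 47 to 50 and for sterile against fertile 43 to 44 when 1 library was left out, against 49 and 44. Fertile against control was the unstable count: 17, but 29 with only the groups compared and 9 to 15 with 1 library left out, the lowest without control library 1 (9) and library 2 (10). DESeq2 gave 23 and edgeR 14 there. The count over all genes moved too, from 1323 higher and 1613 lower to 1617 and 3452 with only the groups compared. Without control library 1 it was 609 and 366. In that fit with only the groups compared the spread is estimated without the sterile libraries; the cause of the rise was not tested. Of the calls, 9 of 17 members lower in fertile adults passed in every alternative, 38 of 41 lower and 7 of 8 higher in sterile against control, and 36 of 36 lower and 6 of 8 higher in sterile against fertile. In control larvae 19 of 21 lower and 6 of 11 higher did so, and in F4+3 larvae 17 of 24 and 7 of 10. No called member changed sign. With the replicate block 18 members were called in fertile against control (1 higher, 17 lower), 49 in sterile against control and 44 in sterile against fertile (8 higher, 36 lower), and in larvae 32 and 35 without food and 0 for ancestry. In sterile against fertile adults, where the numbers pair the samples, all 44 calls were kept under the block. Elsewhere same-number correlations ran from -0.290 to 0.174 and the numbers were taken as names only in the main fit. They were above 0 between control larvae with and without food (0.0525 to 0.154) and between control and F4+3 larvae with food (0.0111 to 0.0987). Under the block 31 of 32 control-larva calls were kept. For F4+3 against control larvae with food it gave 6 genes higher and 46 lower, where the main fit called 0 and 2. In the F4+3 lines DESeq2 called 50 genes higher and 157 lower with food where limma called 0 and 2, with 0 members either way. In larvae 7 Skp1-related genes and ubc-24 lay under the filter, with at most 48 reads in a library, and were not tested there. The test of the difference between food conditions used all 4 L1 groups, so a fit of only the groups compared could not differ from it.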

Other observations

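The 7 Skp1-related genes under the filter in larvae were not evenly spread over the L1 libraries. In F4+3 library 2 without food skr-8, skr-9, skr-13 and skr-14 stood at 20.4, 26.1, 27.7 and 39.1 normalized reads, the highest of all 12 L1 libraries for each. In F4+3 library 1 without food the same genes stood at 0, 0, 0 and 1.54. That library was the shallowest of the L1 libraries, at 25209530 reads against 44853563 in F4+3 library 2 without food. The summed oocyte and early embryo markers were also highest in F4+3 library 2 without food, at 4954, against 3427 to 4453 in the other 11 L1 libraries. In F4+3 library 1 without food, where these genes were at or near 0, the sum was 4297. A link between the genes and these markers was not tested. In control larvae skr-9 was at 0 in 5 of 6 libraries. These genes were singled out after their values were seen.

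The level of ubq-2 relative to ubq-1 also differed between groups, given here with no test. Per kilobase, ubq-2 was 10.2 to 13.1 times as high as ubq-1 in control larvae with food and 5.90 to 8.50 times without, and 12.7 to 18.8 and 6.80 to 8.41 times in F4+3 larvae. In adults the ratio was 1.33 to 1.55 in control, 0.803 to 1.19 in fertile and 1.35 to 1.40 in sterile libraries.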
